A study of Danio rerio with 14 samples.

Results

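Light was set against darkness in the zebrafish pineal gland at the hours when fish under a light-dark cycle were in light. The comparison used 8 of the 14 arrays of the series, 4 from a light-dark cycle (LD) and 4 from constant darkness (DD), chosen by their labels and paired by the time of collection. Time is given as zeitgeber time (ZT), in hours from lights on. Both groups were collected at ZT2, ZT6 and ZT10 and again in a collection named ZT2b. Its meaning is not given by the labels, and it was taken as a further collection at ZT2. The LD fish had 12 h of light and 12 h of darkness and were in light at these hours, and the DD fish were in darkness throughout the cycle of collection. The length of darkness before it was not given in the sources used here. Every fish of both groups carried the transgene Tg(aanat2:EGFP)Y8, in which regulatory sequence of the melatonin enzyme gene aanat2 labels the gland with a green fluorescent protein. The fish were males and females of 3 to 6 months, and the water was at 28 °C. Each array held RNA of 12 pooled glands, amplified about 1800-fold in 2 rounds of transcription, so that a group had a single pool at each time apart from ZT2. The other 6 arrays, from ZT14, ZT18 and ZT22, were dark in both conditions and served as the comparison at night.

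The fish pineal gland is a photoreceptor organ with a clock of its own and makes melatonin at night. Its photoreceptors resemble those of the retina, with an opsin, transducin, phosphodiesterase and recoverins. In zebrafish cells light itself switches on a set of genes that includes the clock repressors per2 and cry1a and enzymes that repair damage from ultraviolet light. This is how a light cycle can set the clock and prepare cells for sunlight.

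The dissected tissue carried pineal markers. Of 13 markers, 10 were on the array. The pineal opsin exorh read 9419 to 14442 on the 8 day arrays and the transducin subunit gene gngt1 read 9999 to 11971. Apart from otx5, whose mean lay at the 75th percentile of all probe sets, each of the 10 lay at or above the 94th. The array values are signals on a linear scale that the authors had scaled to a common mean, and all folds below are differences of log2(signal + 15), which understates the change of dim probe sets. The DD array of ZT10 stood apart. Its poly-A spikes, RNA added before amplification, read 1531 against 80.6 to 148 on the other DD day arrays. Its GAPDH 3'/5' ratio, which grows as RNA is shortened, was 16.7, against 5.09 to 12.9 on the other 13 arrays of the series. The lowest ratio, 5.09, was that of the LD array of ZT10, with which it is paired. The hybridisation spikes, added after amplification, read 697 to 913 on the LD day arrays. They read 536 to 619 on the DD day arrays of ZT2, ZT2b and ZT6, and 1028 on that of ZT10. At night they read 802 to 850 on the LD arrays and 604 to 700 on the DD arrays, so the conditions differed in them there too. The labels name no batches, so a batch shared by the LD arrays and the effect of light cannot be told apart. The part of these spikes and of the 3'/5' ratio in the results was not tested.

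At day hours 859 of 9299 probe sets differed between LD and DD (9.24%; limma, adjusted p under 0.05). Of these 462 were higher in LD and 397 lower, and the change was past 1 log2 unit for 200. In genes, each taken by its brightest probe set, 316 of 6116 were higher in LD (5.17%) and 249 were lower (4.07%). The median change of all 6116 genes was 0.00. LD lay on the same side of DD in all 4 collections for 832 of the 859, and the ranges of the 4 LD and 4 DD signals did not overlap for 683. Over all probe sets tested, 1331 had ranges that did not overlap (14.3%). The share on the same side in all 4 collections was not counted over all probe sets. The calls were made on these same arrays, so both counts describe the calls and are no further support for them. The count of calls was 831 without the DD array of ZT10, of which 565 were among the 859. ZT6 and ZT10 had a single pool per condition, so leaving out either array takes that time out of the day difference. Values given below without the DD array of ZT10 therefore do not tell that array from the LD array of ZT10. It was 325 without the DD array of ZT2b, 355 without the LD array of ZT2b and 83 without both. In the text below a gene rose or fell only where it passed this test.

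Of 9 measured clock and repair genes that light is known to induce, 5 rose. The lead gene was per2, a period gene whose protein represses the clock. Its signal in LD was 3974 at ZT2, 3861 at ZT2b, 1966 at ZT6 and 1728 at ZT10. In DD it was 486, 511, 442 and 618 in the same order. Every LD pool lay above every DD pool, and the gap was widest at both ZT2 collections. per2 rose by 2.36 ± 0.34 (log2, SE; adjusted p = 0.0033). cry1a, a cryptochrome gene whose protein blocks the clock's activators, read 266, 177, 185 and 298 in LD at ZT2, ZT2b, ZT6 and ZT10. In DD it read 77.5, 49.2, 65.6 and 42.2, again with no overlap, and the change was 1.74 ± 0.28 (adjusted p = 0.0052).

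**Figure D1:**
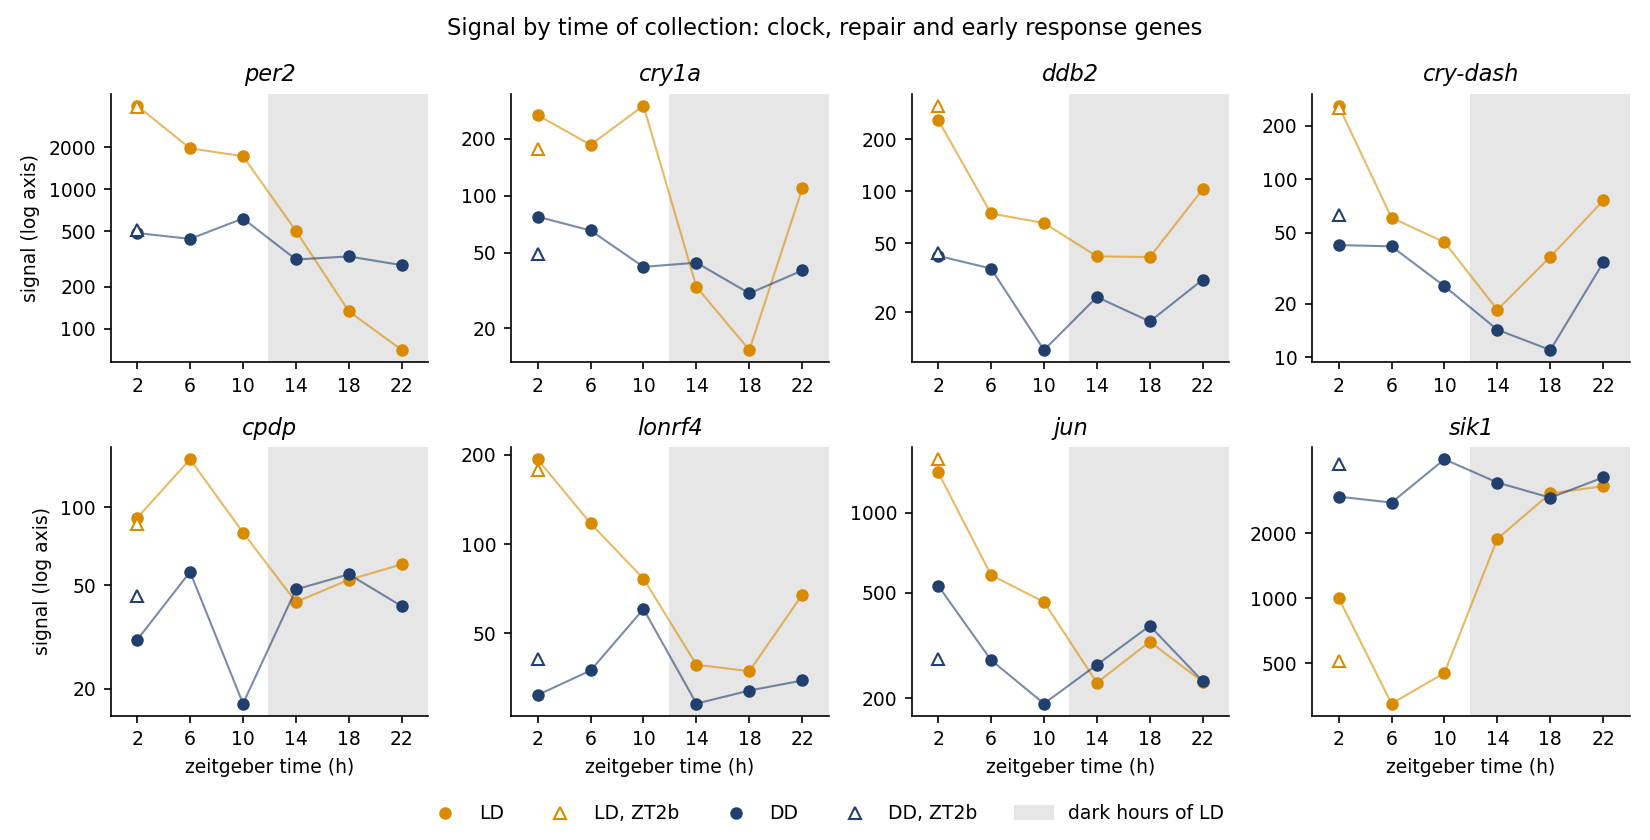
Signal (log axis) of 8 genes against zeitgeber time in hours, for LD and DD. Each point is 1 pool of 12 glands, open triangles are the ZT2b pools, lines join the other pools in time order and the grey band marks the dark hours of LD. At ZT2 to ZT10 the first 7 genes lie higher in LD and sik1 lies lower in every collection.

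The light-induced repair genes that were called read lower in DD than in LD in each collection. ddb2 encodes the subunit that finds ultraviolet damage for nucleotide excision repair. It read 259, 313, 74.5 and 65.6 in LD at ZT2, ZT2b, ZT6 and ZT10 and 42.4, 44.2, 35.8 and 12 in DD. The LD values at ZT2 were the highest, and the change over the 4 collections was 1.78 ± 0.25 (adjusted p = 0.0031). cpdp encodes the photolyase of cyclobutane pyrimidine dimers, an enzyme that uses light to undo damaged bases. It read 90.8, 86.1, 153 and 79.8 in LD and 30.8, 45.4, 56.3 and 17.5 in DD, with no overlap, and rose by 1.18 ± 0.18 (adjusted p = 0.0037). cry-dash, a relative of the photolyases, read 259 and 252 in LD at ZT2 and ZT2b against 42.7 and 63.2 in DD. At ZT6 and ZT10 it read 60.8 and 44.3 against 42.0 and 25.1, so that the LD values of the later hours lay inside the DD range. It rose by 1.25 ± 0.28 (adjusted p = 0.0204, 0.0150 to 0.148 over the alternatives), and the call did not hold when the DD array of ZT2b or the LD array of ZT2 or ZT2b was left out.

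Another photolyase gene, cry5, which encodes the enzyme for 6-4 photoproducts, was high in LD at both ZT2 collections. It read 176 and 183 in LD at ZT2 and ZT2b against 12 and 11.7 in DD. At ZT6 the values were 30.9 and 24.7, and at ZT10 9.9 in LD and 31.7 in DD. Its change of 1.25 ± 0.53 over the 4 collections was not called (adjusted p = 0.146). It was called without the DD or the LD array of ZT10 (1.97 in both fits, adjusted p = 0.0272 and 0.0267). Another probe set of cry5 was called (0.91 ± 0.20, adjusted p = 0.0180). The light effect at ZT2 minus that at ZT6 and ZT10 was 3.203 ± 0.54 for cry5, 1.52 ± 0.38 for cry-dash and 1.17 ± 0.39 for ddb2. This contrast was chosen after the data were seen, and limma called 0 of 9299 probe sets in it (451 at an unadjusted p under 0.05, with cry5 at adjusted p = 0.492).

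On this list of light-induced clock and repair genes 5 of 9 rose and 0 fell, with a median change of 1.25. The share of all genes called higher was 5.17% and lower 4.07%, and the counts of every list below are to be read against these shares. The lists were chosen with earlier results of these data known. Their counts therefore describe the lists and are no independent test of them. The 4 that were not called were cry5, the transcription factor gene tefa (0.67 ± 0.22, adjusted p = 0.0725), the glycosylase gene neil1 (0.55) and xpc (0.29), whose protein recognises bulky DNA damage. Without the DD array of ZT10, 7 were called, with tefa (0.91, adjusted p = 0.0224) and cry5 added. Both genes were also called without the LD array of ZT10. On the longer list of DNA repair and damage response genes, 6 of 23 rose and 1 fell (median 0.45). Beside ddb2 and cry-dash these were ddb1, the partner of ddb2 in its complex, the flap endonuclease gene fen1, mdm2, whose protein controls p53, and ercc3, a helicase gene of excision repair. ddb1 read 437 to 605 in LD and 233 to 252 in DD, and rose by 0.9997 ± 0.15 (adjusted p = 0.0037). For ddb1 a second probe set narrowly missed the threshold (1.03 ± 0.30, adjusted p = 0.0520). fen1 (0.86), mdm2 (0.82) and ercc3 (0.78) rose less. mdm2 narrowly missed the threshold without the DD or LD array of ZT2b (adjusted p = 0.0507 and 0.0525). The gene that fell was rad23b, a partner of xpc (-0.76 ± 0.15, adjusted p = 0.0132), named here after its value was seen.

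Most of the core clock was not called. In the negative limb 2 of 9 rose, per2 and cry1a, and 0 fell (median 0.28). The E-box repressor genes bhlhe40 (0.46 ± 0.43) and bhlhe41 (-0.44 ± 0.34), the repressor gene ciarta (-0.30 ± 0.35) and the nuclear receptor gene nr1d2b (-0.07 ± 0.28) were not called. Nor were the cryptochrome genes cry4 (0.28 ± 0.17), cry1b (0.02 ± 0.31) and cry2. The value of cry2 was the largest of these (1.15 ± 0.38, adjusted p = 0.0769), and it was higher in LD in 4 of 4 collections. The uncalled genes of this limb were named after their values were seen. In the positive limb 1 of 5 was called, rorab, a nuclear receptor gene of the family that activates bmal genes (median 0.68). rorab read 439 to 622 in LD and 189 to 423 in DD and rose by 0.93 ± 0.20 (adjusted p = 0.0161), a call lost without the DD or LD array of ZT2b (adjusted p = 0.0626 and 0.0543). The activator gene bmal1a read higher in LD in 4 of 4 collections, with 332 against 150.3 at ZT10, and was not called (0.74 ± 0.29, adjusted p = 0.117). Of 3 PAR bZIP and E4BP4 genes, which encode output factors of the clock, 0 were called (median 0.58). nfil3-5 read 33.4 at ZT2b and 6239 at ZT10 in LD, and 28.7 and 2513 in DD, so its course over the day spanned far more than its light difference (0.58 ± 0.28, adjusted p = 0.196).

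The genes of melatonin synthesis did not pass the test, 0 of 4 (median -0.17). aanat2, the enzyme that sets the rate of melatonin production, read 3193, 3587, 7072 and 3781 in LD at ZT2, ZT2b, ZT6 and ZT10. In DD it read 2906, 7488, 2179 and 1017. The groups overlapped, and the highest pool was at 7072 in LD and 7488 in DD. Its difference was 0.66 ± 0.40 (adjusted p = 0.304). It was 0.26 without the DD array of ZT10 and was called without the DD array of ZT2b (1.16, adjusted p = 0.0432). tph1a, the tryptophan hydroxylase gene of the first step, had -0.10 ± 0.23 (adjusted p = 0.811). Another probe set of tph1a was lower in LD (-0.75 ± 0.17, adjusted p = 0.02). ddc, the decarboxylase gene of the pathway, read lower in LD in 4 of 4 collections, 2184 to 3997 against 4130 to 5461, and was not called (-0.56 ± 0.19, adjusted p = 0.0872). With 6 residual degrees of freedom the median SE of a day difference was 0.19. Differences well above the SE could still be missed, as for ddc at -0.56 ± 0.19. The lack of a call therefore does not show a lack of change.

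Among the transcription factors that give the gland its identity, 2 of 15 rose and 0 fell (median 0.19). otx5, a homeobox gene of pineal photoreceptors, read 290, 274, 229 and 241 in LD at ZT2, ZT2b, ZT6 and ZT10 and 82.5, 88.2, 102 and 107 in DD. The lowest LD pool stood well above the highest DD pool, and the change was 1.31 ± 0.15 (adjusted p = 0.00093). noto, a homeobox gene needed for pineal neurons to form in zebrafish embryos, rose by 0.76 ± 0.17 (adjusted p = 0.0204, 0.0172 to 0.144 over the alternatives). It lost its call without either array of ZT6 or of ZT2b. crx, of the same homeobox family, had 0.17 ± 0.19 and the opsin gene exorh 0.05 ± 0.11, and neither was called (adjusted p = 0.602 and 0.818).

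In phototransduction 3 of 26 genes rose and 2 fell (median 0.11), where 5.17% and 4.07% of all genes did. pde6ha, an inhibitory subunit of the photoreceptor phosphodiesterase, read 9501, 10756, 15428 and 14845 in LD and 6984, 4539, 7386 and 6914 in DD. Every LD pool was above every DD pool, with a rise of 0.96 ± 0.16 (adjusted p = 0.0053). Another probe set of pde6ha differed more, with means of 7464 in LD and 1335 in DD (2.58 ± 0.37, adjusted p = 0.0033). The recoverin genes, which encode calcium sensors of photoreceptors, also rose, rcvrn3 by 0.86 ± 0.14 (adjusted p = 0.0053) and rcvrn2 by 0.58 ± 0.15 (adjusted p = 0.0324, 0.0267 to 0.178 over the alternatives). The last call did not hold in a fit that ignored the time of collection, nor with several single arrays left out. A second probe set for rcvrn2 was not called (0.24 ± 0.26, adjusted p = 0.582).

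The 2 genes that fell were cone opsins. The red opsin gene opn1lw1 read 1149, 2048, 4554 and 7599 in LD and 4483, 2790, 9423 and 11839 in DD at ZT2, ZT2b, ZT6 and ZT10. It climbed over these hours in both conditions, so that the groups overlapped, but LD was lower in each collection (-1.02 ± 0.22, adjusted p = 0.0153). The call rested on the pairing by time and was lost with no block of collections (adjusted p = 0.251). The blue opsin gene opn1sw2 read 92.0, 44.9, 57.3 and 139 in LD and 130.4, 324, 637 and 613 in DD. It fell by 2.04 ± 0.35 (log2, SE; adjusted p = 0.0062). The difference was smallest in the ZT2 collection, at -0.44, but was -2.50 in the ZT2b collection, taken as the same hour.

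In the retinoid cycle, which recycles the light-sensing molecule, 2 of 21 genes rose and 1 fell (median 0.12). rbp3, whose protein carries retinoids between cells, read 5122, 6098, 6173 and 5389 in LD and 3085, 2098, 2889 and 1764 in DD. It rose by 1.24 ± 0.23 (adjusted p = 0.0084). rpe65a, the retinoid isomerase gene, rose by 0.78 ± 0.13 (adjusted p = 0.0051). Its LD values ran from 5525 at ZT10 to 12605, and the lowest lay inside the DD range of 4355 to 6859. With no block of collections the call was lost (adjusted p = 0.186). Another probe set of rpe65a had means of 1806 in LD and 406 in DD (2.12 ± 0.30, adjusted p = 0.0031). crabp2a, a gene of a retinoic acid binding protein, fell by 0.97 ± 0.16 (adjusted p = 0.0051).

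**Figure D2:**
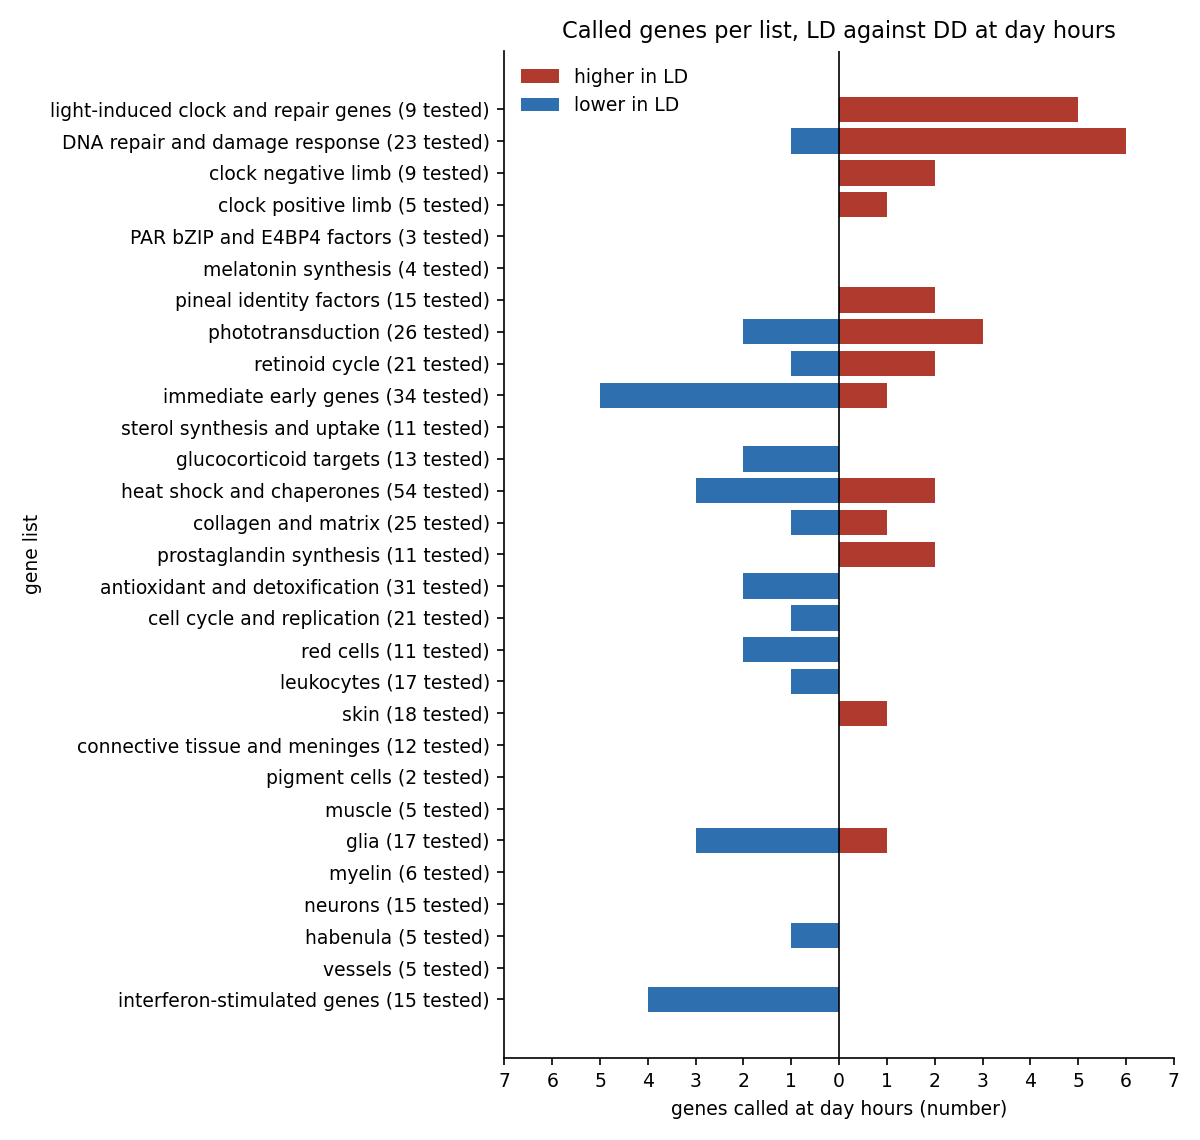
Number of genes called at day hours in each list, higher in LD to the right and lower to the left, with the number tested beside each name. The DNA repair list has the most higher genes (6) and the immediate early list the most lower genes (5), and the interferon list was added after its values were seen.

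Genes of the early response to signals split, 1 of 34 higher and 5 lower (median -0.08, with 5.17% and 4.07% of all genes called). jun, a subunit gene of the AP-1 transcription factor, read 1421, 1588, 582 and 461 in LD and 532, 282, 279 and 191 in DD. It was higher in LD in 4 of 4 collections, though the groups overlapped, and rose by 1.51 ± 0.22 (adjusted p = 0.0033). For jun a second probe set was not called (0.92 ± 0.40, adjusted p = 0.163). sik1, which encodes a kinase that holds back coactivators of CREB, had the opposite course. It read 1006, 514, 326 and 452 in LD and 2949, 4186, 2768 and 4387 in DD. No LD pool came near a DD pool, and sik1 fell by 2.70 ± 0.25 (log2, SE; adjusted p = 0.00066).

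Of the other genes that fell in this list, cremb encodes a transcription factor that answers to cyclic AMP. It read 21.1, 29.9, 3.6 and 5.3 in LD, partly below the pseudocount, and 59.8, 118, 37.6 and 85.4 in DD (-1.61 ± 0.38, adjusted p = 0.0248, 0.0090 to 0.112 over the alternatives). The MAP kinase phosphatase genes dusp5 and dusp6 fell by 0.69 ± 0.15 and 0.72 ± 0.18 (adjusted p = 0.0153 and 0.0273) and the orphan receptor gene nr4a1 by 0.68 ± 0.18 (adjusted p = 0.0407). Each of these 4 calls was lost with at least 1 array left out. That of nr4a1 was lost in 16 of the 27 alternatives that tested it. The others were lost in 3 of 28 for dusp5, 6 of 28 for dusp6 and 8 of 27 for cremb. With the DD array of ZT10 left out the list had 2 higher and 4 lower. fosab was not called (-0.32 ± 0.41, adjusted p = 0.652).

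The largest rises held several genes outside the lists of light responses. crtac1a encodes a protein secreted into cartilage matrix. It read 155, 189, 323 and 373 in LD at ZT2, ZT2b, ZT6 and ZT10. In DD it read 54.0, 42.6, 43.6 and 7.9. It rose by 2.44 ± 0.35 (adjusted p = 0.0033), and by 1.89 without the DD array of ZT10. At ZT10 it was lowest in DD and highest in LD, and leaving out either array takes that time out of the difference. ptgdsb.2, of the prostaglandin D synthase family, read 579 to 735 in LD and 92.9 to 279 in DD and rose by 1.99 ± 0.25 (adjusted p = 0.0016). Its relative ptgdsb.1 rose by 1.24 ± 0.20 (adjusted p = 0.0046). Both members were among 11 measured genes of prostaglandin synthesis, of which 2 rose and 0 fell (median -0.19). On the list of collagen and matrix genes 1 of 25 rose, crtac1a, and 1 fell (median 0.02).

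Other genes among the 15 largest rises included plk3, bokb and sall1a. plk3, which encodes a polo-like kinase of the stress response, read 1148, 912, 697 and 881 in LD and 368, 207, 287 and 148 in DD. The groups lay far apart, with a rise of 1.84 ± 0.23 (adjusted p = 0.0016). bokb, a gene of the Bcl-2 family that promotes cell death, rose by 1.80 ± 0.20 (adjusted p = 0.00093), with 298 to 497 in LD and 56.2 to 146 in DD. The zinc finger gene sall1a rose by 1.74 ± 0.27 (adjusted p = 0.0045) and was highest at ZT6 in LD, at 771. A smaller rise was that of gadd45ga, of a family induced by stress. It read 1090.2 to 1448 in LD and 390.2 to 692 in DD, and rose by 1.16 ± 0.16 (adjusted p = 0.0024).

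The remaining genes of these rises have various roles or none described. mid1ip1l read 6061, 6944, 3847 and 1708 in LD at ZT2, ZT2b, ZT6 and ZT10, and 1909, 1749, 917 and 869 in DD. Its level fell over the day in both conditions, with LD higher at each hour (1.66 ± 0.20, adjusted p = 0.0014). polr2a, the gene of the largest subunit of RNA polymerase II, read 417 to 740 in LD and 123 to 241 in DD (1.54 ± 0.20, adjusted p = 0.0018). Another probe set of polr2a was not called (0.89 ± 0.27, adjusted p = 0.0553). lonrf4, a gene with a RING finger, read 193, 178, 117 and 76.5 in LD and 31.0, 40.9, 37.5 and 60.4 in DD. It rose by 1.39 ± 0.25 (adjusted p = 0.0079), and its difference was 2.18 at ZT2 and 0.28 at ZT10. The loci LOC567909 (1.65 ± 0.32) and LOC559664 (1.58 ± 0.17) have no described role in the sources used here. kng1, the kininogen gene, rose by 1.44 ± 0.29 (adjusted p = 0.0137), but its DD values of 4.6 to 7.0 lay below the pseudocount, which therefore sets the size of its change.

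**Figure D3:**
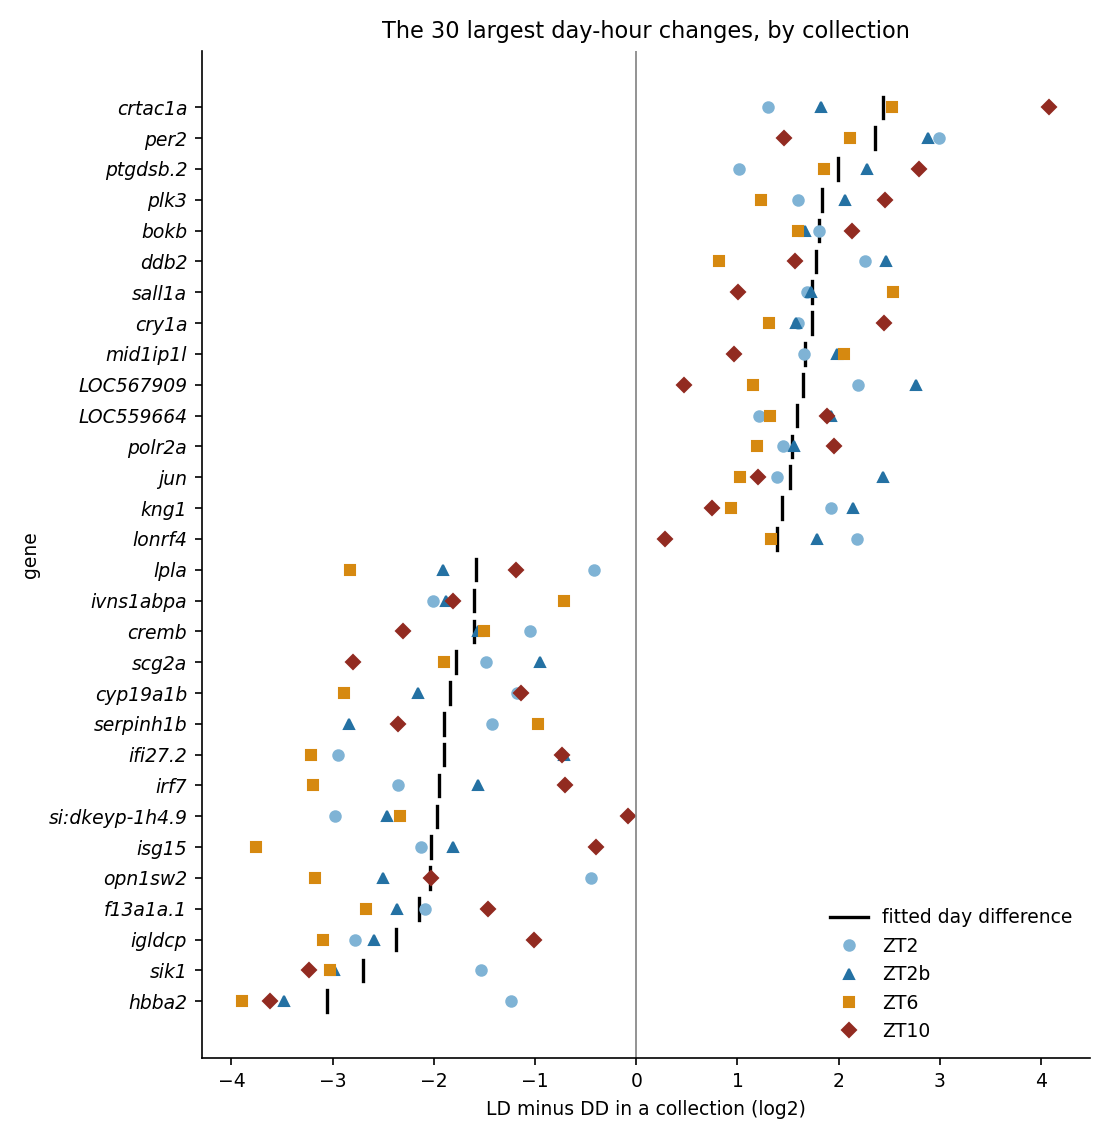
LD minus DD (log2) in each of the 4 day collections for the 15 genes with the largest rise and the 15 with the largest fall, with a black bar at the fitted day difference. All points of a gene lie on 1 side of 0, as the choice of these genes required, and spreads are wide, from 1.304 to 4.08 for crtac1a and from -3.89 to -1.23 for hbba2.

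The largest fall was that of hbba2, an adult beta globin gene of red blood cells. It read 195, 96.8, 97.2 and 195 in LD at ZT2, ZT2b, ZT6 and ZT10 and 479, 1233, 1653 and 2565 in DD. The difference was -1.23 at ZT2 and -3.48 to -3.89 in the other collections, and -3.06 ± 0.34 over all (adjusted p = 0.00093). Globin genes have near-identical copies, and which of them this probe set reads is not known here. In a bulk sample fewer cells of a type and less RNA per cell cannot be told apart.

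Of 11 measured red cell markers 2 fell and 0 rose, with a median of -0.56 and summed signals of 7572 to 10582 in LD and 9659 to 19004 in DD. The other that fell was the anion exchanger gene slc4a1a (-0.94 ± 0.25, adjusted p = 0.0392). It was at 52.7 in LD and 51.1 in DD at ZT2 and lower in LD at the other collections. Its call did not hold with the DD or the LD array of ZT10 left out (adjusted p = 0.116 and 0.114) nor in several other alternatives (0.0072 to 0.173). The alpha globin gene hbaa1, had means of 7566 in LD and 11991 in DD and was not called (-0.65 ± 0.20, adjusted p = 0.0621).

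Other large falls were of genes with several roles. f13a1a.1, a gene of the clotting factor XIII A chain, read 254, 228, 110.2 and 464 in LD and 1126, 1230.4, 780 and 1304 in DD. No pools overlapped, and it fell by 2.14 ± 0.21 (log2, SE; adjusted p = 0.00066). igldcp read 38.3 to 78.0 in LD and 173 to 645 in DD (-2.37 ± 0.29, adjusted p = 0.0014). lpla, a lipoprotein lipase gene, read 137, 76.3, 35.2 and 181 in LD and 189, 328, 342 and 433 in DD (-1.59 ± 0.29, adjusted p = 0.0077). Of 17 measured leukocyte markers 1 fell, the cathepsin gene ctsc (-0.97 ± 0.17, adjusted p = 0.0068), with 99.3 to 130.3 in LD and 195 to 296 in DD. The median of that list was -0.47, and its summed signals were 3734 to 6531 in LD and 5008 to 11628 in DD. The part of blood cells in these results was not tested.

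Of 15 measured genes that interferon switches on, part of the defence against viruses, 4 fell and 0 rose (median -0.39). This list was put together after several of its members had been seen among the largest falls, so its count describes what led to it. irf7, a transcription factor gene of the response, read 23.9, 32.8, 20.3 and 27.9 in LD and 184, 126, 307 and 55.1 in DD (-1.95 ± 0.40, adjusted p = 0.0140). isg15, a gene of a ubiquitin-like protein, read 34 to 51.5 in LD and 263, 168, 647 and 72.7 in DD (-2.02 ± 0.46, adjusted p = 0.0214). The LD pools were alike and the DD pools were not: both genes were highest at ZT6 and lowest at ZT10 in DD.

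ifi27.1 and ifi27.2, of another interferon-induced family, fell by 1.36 ± 0.22 and 1.90 ± 0.42 (adjusted p = 0.0046 and 0.0189). At ZT10 the difference of ifi27.1 was -0.41, with 256 in LD and 344 in DD. irf7, isg15 and ifi27.2 lost their calls without either array of ZT6 (adjusted p = 0.0551 to 0.0778), and 5 members were called without the DD array of ZT10. Summed over the list, signals were 2339 to 2792 in LD and 2534 to 6855 in DD. The leukocyte sums given above moved in the same direction, and their part in this result was not tested. si:dkeyp-1h4.9, which is not on the list, read 219 to 571 in LD and 607 to 2035 in DD (-1.96 ± 0.41, adjusted p = 0.0144), with its difference at ZT10 at -0.09.

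**Figure D4:**
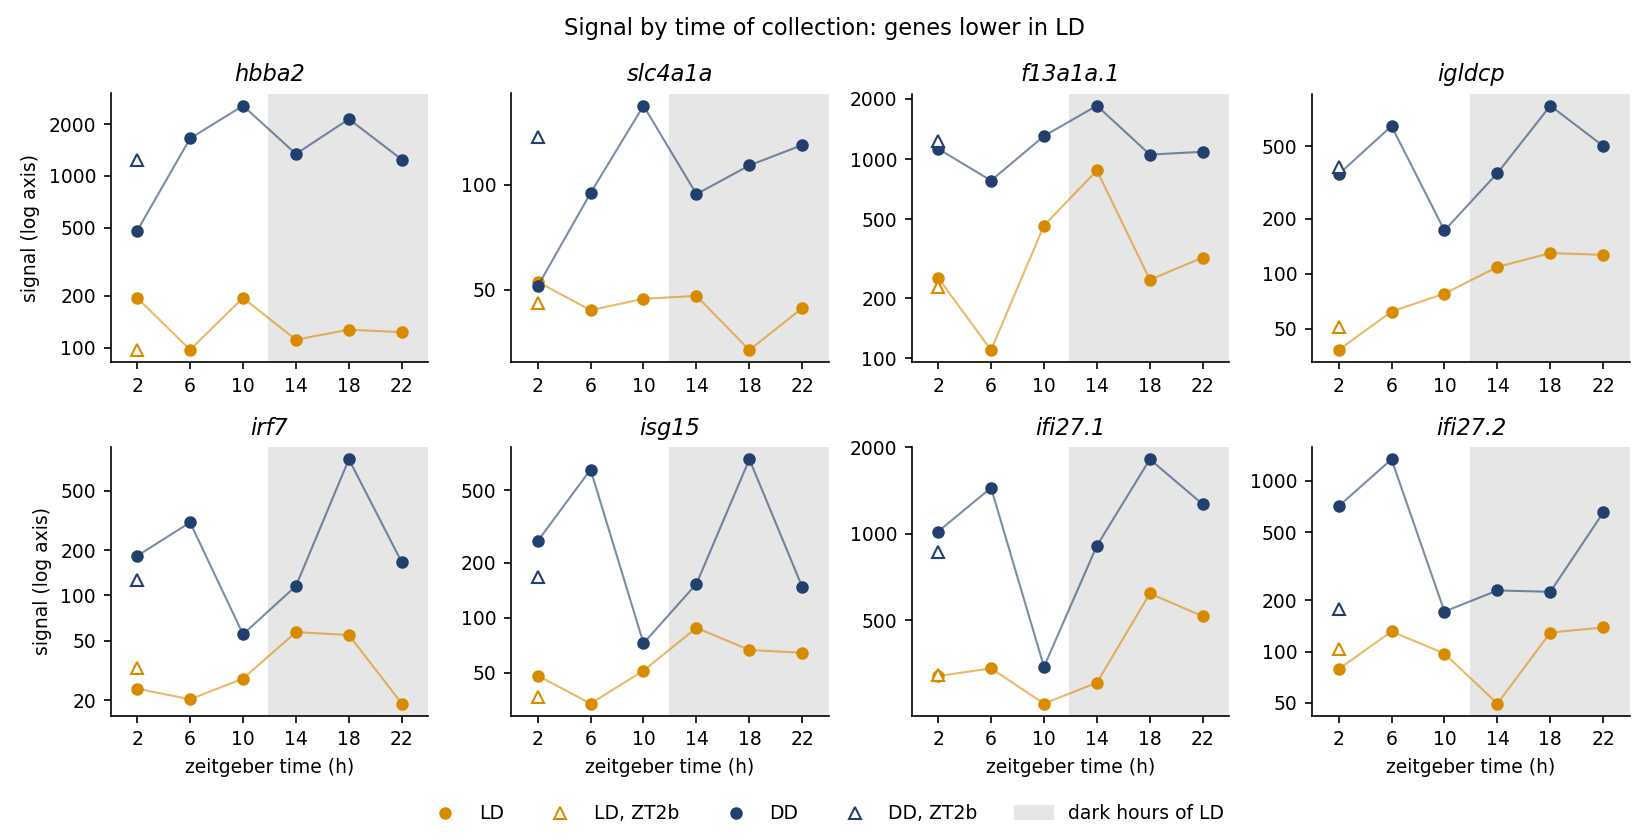
Signal (log axis) of 8 genes lower in LD at day hours against zeitgeber time in hours, drawn as for the clock and repair genes, with 1 pool of 12 glands per point. hbba2 and f13a1a.1 lie lower in LD at all 7 collections, and the interferon-stimulated genes (lower row) vary more among DD pools than among LD pools at day hours.

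Further large falls were of genes of secretion, steroid synthesis and protein folding. scg2a, a secretogranin gene of secretory granules, read 1787, 2484, 1334 and 1040 in LD and 5034, 4814, 5012 and 7314 in DD (-1.78 ± 0.23, adjusted p = 0.0018). cyp19a1b, the brain aromatase gene, which in fish is made by radial glia, read 47.1 to 128 in LD and 299.7 to 446 in DD (-1.84 ± 0.25, adjusted p = 0.0024). ivns1abpa read 791 to 1557 in LD and 2564 to 4046 in DD (-1.60 ± 0.19, adjusted p = 0.0014), and another probe set of it was not called (-0.62 ± 0.26, adjusted p = 0.146). serpinh1b, a chaperone gene of collagen, read 392, 294, 360 and 87.6 in LD and 1077, 2192, 719 and 511 in DD. It was lower in LD in each collection and fell by 1.90 ± 0.31 (log2, SE; adjusted p = 0.0053).

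Of 54 heat shock and chaperone genes 2 rose and 3 fell (median -0.03), shares near the 5.17% and 4.07% of all genes. The Hsp70 genes hspa8b and hsp70.3 fell by 1.05 ± 0.15 and 1.27 ± 0.22 (adjusted p = 0.0037 and 0.0068). The probe set of hsp70.3 is of a type that may bind related transcripts, so the copy is uncertain. hspd1, the mitochondrial chaperonin gene, rose by 0.98 ± 0.18 (adjusted p = 0.0074) and cirbpb, a cold-inducible RNA-binding gene, by 0.87 ± 0.15 (adjusted p = 0.0070). cirbpb was at 1912 to 3079 in LD and 1156 to 1356 in DD, and another probe set of it was not called (0.78 ± 0.33, adjusted p = 0.146).

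The lists of metabolism and other pathways were read against the same 5.17% higher and 4.07% lower. Among 31 antioxidant and detoxification genes 2 fell and 0 rose (median 0.05), gpx1b, a glutathione peroxidase gene (-1.33 ± 0.24, adjusted p = 0.0077), and gclm, of glutathione synthesis (-0.82 ± 0.17, adjusted p = 0.0132). Of 13 glucocorticoid targets 2 fell and 0 rose (median -0.14), ndrg1a (-1.27 ± 0.26, adjusted p = 0.0134) and the glutamine synthetase gene glula (-0.65 ± 0.16, adjusted p = 0.0290). The receptor's usual target genes fkbp5 (-0.04 ± 0.31) and klf9 (-0.63 ± 0.30) were not called. In sterol synthesis and uptake 0 of 11 were called (median 0.07), among them hmgcs1, an early enzyme of the pathway (0.67 ± 0.25, adjusted p = 0.111), and insig1, which restrains it (0.17 ± 0.21, adjusted p = 0.640). hmgcs1 was called without the DD or the LD array of ZT10 (1.04 in both fits, adjusted p = 0.0117 and 0.0118). In cell cycle and replication 1 of 21 fell, the kinase gene cdk2 (-0.65 ± 0.17, adjusted p = 0.0343, 0.0273 to 0.193 over the alternatives).

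Markers of other cells in the dissected tissue were compared in the same way. Of 17 glial genes 3 fell and 1 rose (median -0.17). These were s100b (-1.03 ± 0.19, adjusted p = 0.0075), the Notch-related repressor gene her9 (-0.92 ± 0.21, adjusted p = 0.0210), glula and the glutamate transporter gene slc1a2b (0.70 ± 0.18, adjusted p = 0.0334). her9, glula and slc1a2b lost their calls with single arrays left out. Summed glial signals were 13887 to 16677 in LD and 15195 to 16730.1 in DD. Of 5 markers of the habenula, the brain region beside the gland, 1 fell (median -0.32), kctd12.1, with 114 to 138 in LD and 215 to 488 in DD (-1.24 ± 0.18, adjusted p = 0.0033). Summed over the list the habenula markers read 472 to 642 in LD and 653 to 1010 in DD. Of 18 skin markers the keratin gene krt8 rose (0.90 ± 0.25, adjusted p = 0.0442, 0.0332 to 0.129 over the alternatives), with a list median of -0.12. No gene was called among 12 of connective tissue and meninges (median 0.18), 2 of pigment cells (-0.24), 5 of muscle (-0.16), 6 of myelin (-0.21), 15 of neurons (0.21) and 5 of vessels (-0.12). The part of these cell types in the results was not tested.

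The same contrast at night, when both conditions were dark, gives the values of the same genes at hours without light. At night 272 of 9299 probe sets differed (2.93%), with 78 of 6116 genes higher in LD (1.28%) and 98 lower (1.6%). Of the 859 called by day, 152 were also called at night, which is 17.7% of the day calls and 55.9% of the night calls. Their sign at night was that of the day for 92.4%, against 72.2% of all probe sets tested. The median of those higher by day was 0.78 by day and 0.50 at night, and of those lower -0.78 and -0.53. The day and night contrasts used different pools but share the estimate of the spread. The labels do not say whether the pools of a condition had a common source or batch, so these shares are descriptions. Of 123 genes past 1 on the log2 scale by day, 43 were under 0.5 in size at night and 40 were past 1 at night with the same sign.

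**Figure D5:**
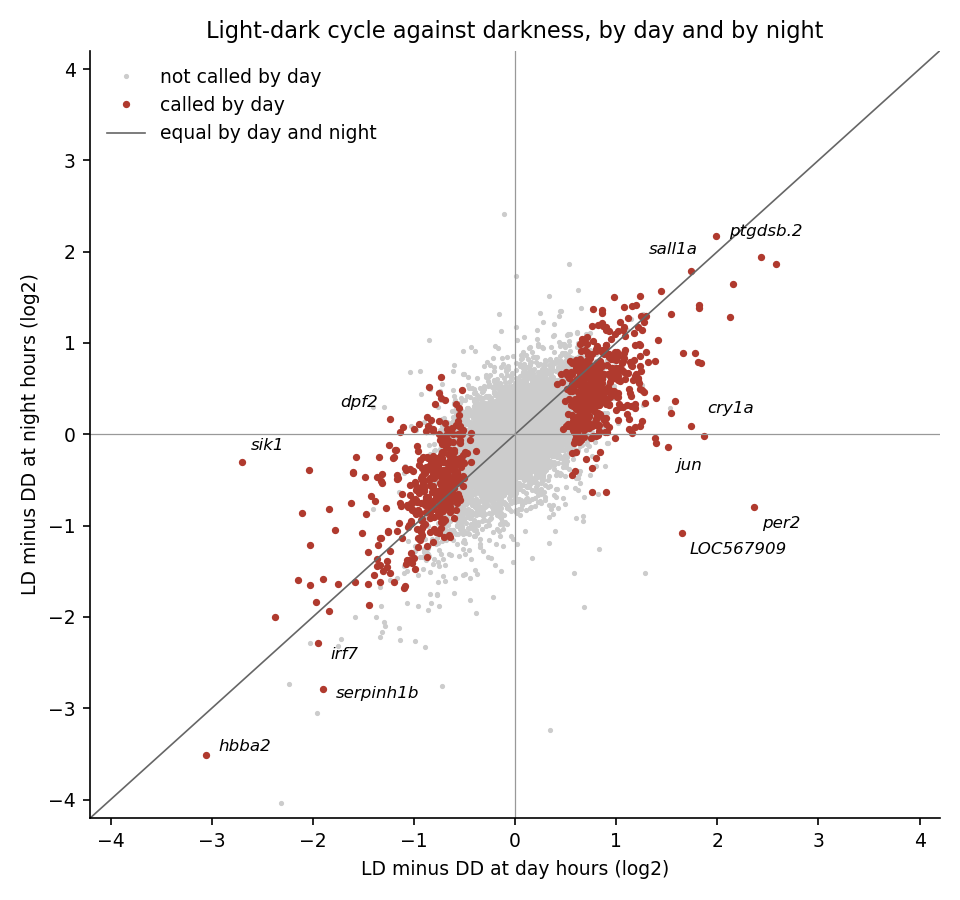
LD minus DD (log2) at day hours (x axis) and at night hours (y axis) for 9299 probe sets, with the 859 called by day in red and a line where both are equal. per2, cry1a, jun, sik1 and dpf2 lie far from 0 by day and near or across 0 at night, and hbba2, sall1a and ptgdsb.2 lie near the line.

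Several of the genes known to be induced by light differed by day and had values near 0 or opposite in sign at night. Others did not, with ddb2 at 0.90, cry-dash at 0.69, cry5 at 0.54 and neil1 at 0.32 at night. tefa, not called by day (0.67), was called at night (1.05, limma adjusted p = 0.0482). On the DNA repair list ddb1 (0.86) and fen1 (0.92) were also called at night, and ercc3 (0.31) and mdm2 (-0.01) were not. These night calls were lost without either array of ZT18. per2 read 504, 134 and 70.6 in LD at ZT14, ZT18 and ZT22 and 315, 331 and 286 in DD. Its night difference was -0.79 ± 0.39 (adjusted p = 0.278), and the day effect exceeded the night effect by 3.16 ± 0.52. cry1a was at 0.09 ± 0.33 at night, where its hours differed in direction. It read 33.1, 15.4 and 109 in LD at ZT14, ZT18 and ZT22 and 44.4, 30.6 and 40.4 in DD, so LD was higher at ZT22 only. cpdp was at 0.08 and jun at -0.14 at night. sik1 had 1886, 3051 and 3296 in LD and 3427, 2916 and 3617 in DD at night (-0.31 ± 0.29), and its day effect was lower than its night effect (-2.39 ± 0.38). dpf2, a gene of a chromatin remodelling complex, fell by 1.23 ± 0.14 by day and read 0.16 at night, with a difference of -1.40. Another probe set of dpf2 was not called by day (-0.04 ± 0.31, adjusted p = 0.949).

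None of these differences between day and night passed the adjustment. limma called 0 of 9299 probe sets for day minus night, with 527 at an unadjusted p under 0.05. The smallest adjusted p was 0.152, for per2, sik1 and dpf2. The others of the 10 genes with the smallest values were LOC567909 (2.73), rorcb (2.57), nfil3-5 (2.1), jun (1.65), LOC559664 (1.22), gadd45ga (1.14) and zgc:56628 (-1.19). zgc:56628 fell by 1.11 ± 0.15 by day (adjusted p = 0.0031). rorcb and nfil3-5 were not called by day and were lower in LD at night (-1.89 and -1.52, adjusted p = 0.0234 and 0.0343), calls that were lost without either array of ZT18.

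A further group was also called in the dark, in a comparison of 3 pools with 3 whose calls were unstable. Without the LD or the DD array of ZT18 limma called 0 of 9299 probe sets at night (1305 and 1307 at an unadjusted p under 0.05), so that each night call given here was lost. The count was 26 without either array of ZT14, 5 without either of ZT22 and 16 without both ZT2b arrays. hbba2 was at -3.51 at night (adjusted p = 0.0050), serpinh1b at -2.79 (0.0077), irf7 at -2.28 (0.0301), igldcp at -1.996 (0.0199), f13a1a.1 at -1.60 (0.0116) and kctd12.1 at -1.52 (0.0077). Among the rises, ptgdsb.2 was at 2.18 (adjusted p = 0.0077), crtac1a at 1.94 (0.0311), sall1a at 1.79 (0.0227), rcvrn3 at 1.22 (0.0077) and otx5 at 0.79 (0.0383). Each of these 11 genes had the same sign at night under all 28 alternatives. Most of those alternatives, such as leaving out a day array or changing the variance prior, cannot change the night value. The genes were also picked for their night calls, so the shared sign is no further support. With 1 array left out the night value of hbba2 was -3.68 to -3.31, and it was called in 12 of 14 such fits. That of otx5 was 0.75 to 0.83, and it was called in 5 of 14. These 14 fits are not separate checks of the night value. Leaving out 1 of the 8 day arrays does not change it, and leaving out either array of a night hour takes that hour out.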

How the data were processed

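The deposited values are linear MAS5 intensities, 1 signal per probe set, which the authors had scaled so that the mean, with 2% trimmed at each end, was 150.04 to 150.05 on every array. GCOS and MAS5 are the tools named in the submitters' processing notes. The sources used here give neither their versions nor a genome build. Of 15617 probe sets, 115 were controls and 1 had an empty cell, and these were left out. A single gene symbol was given for 10795 by the platform annotation, 135 had several and 4572 none, and only the first kind was named. Symbols were looked up by Entrez ID for 10711.

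From these intensities log2(signal + 15) was computed, where 15 is near the 25th percentile of all values. Probe sets with a mean above 29.179, the 40th percentile, were tested. limma 3.58.1 (R 4.3.3; lmFit and eBayes with trend) was fitted to all 14 arrays with the 6 times of collection as a block, a light term for day hours and another for night hours. Each adjusted p is limma's, with Benjamini-Hochberg adjustment over all 9299 probe sets and a threshold of 0.05. The fit was tested on simulated data. No label names separate batches, and the spread behind each p-value is that between pools after the fit. The number of arrays limits the precision.

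Genes named are the 15 largest rises and 15 largest falls called with LD on the same side in all 4 collections, the 10 genes with the smallest adjusted p for day minus night, a fixed set of clock, melatonin and stress genes, and at most 6 called members of each of 29 lists. The genes and lists were chosen with earlier results of these data known, and the interferon list was added after its values were seen. Outside this rule, bhlhe40, bhlhe41, ciarta, nr1d2b, cry2, cry4, cry1b, neil1, hbaa1, rad23b, egr4 and hey1 were named with their values known. The alternatives changed the pseudocount, the filter, the scaling, the block, the variance prior and the arrays used. Figures were drawn with matplotlib 3.10.9.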

Additional observations from a re-analysis of the deposited data

Results flagged for a closer look

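The DD array of ZT10 had spike signals far from those of the other DD day arrays. Its poly-A spikes read 1531.14 against 80.6 to 148, and its hybridisation spikes 1028.4 against 536 to 619. Among gene signals, 1 pool stood apart from the other 3 of its group in 13 of 174 groups of 4 tested, by Dixon's test. Chance flags about 1 in 20 groups, and 4 of the 13 were on this array. On it nfil3-5 read 2513.4 (28.7 to 157 on the other 3), rorcb 473.5 (25.2 to 32.2), scg2a 7314.4 (4814 to 5034) and her9 783.7 (1244 to 1282). In LD nfil3-5 and rorcb were also highest by day at ZT10, at 6239 and 409.8 (34.4 to 185.6 for rorcb on the other 3). scg2a was lowest there in LD (1039.6), and her9 (663.2) lay inside the range of its other LD day pools. The parts of hour and array in these flags were not tested.

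On the LD array of ZT6 aanat2 read 7071.6 (3193 to 3781 on the other 3), sall1a 770.8 (356 to 421) and cpdp 152.8 (79.8 to 90.8). On the LD array of ZT10 nfil3-5 read 6239 (33.4 to 368) and insig1 106.3 (219.7 to 235), and on that of ZT2 ndrg1a read 125.9 (66.4 to 70.5). On the DD array of ZT2b pde6ha read 4539 (6914 to 7386) and rcvrn2 739.4 (873 to 891), and on that of ZT6 gpx1b read 1285.6 (928 to 964). The pools of a group were collected at different hours.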

How the results depend on the processing

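The count of probe sets called at day hours (859) was 446 when only the day arrays were fitted, 83 without both ZT2b arrays and 325 to 831 with 1 array left out. The count at night (272) was 138 with no filter on dim probe sets, 132 with a block of 7 collections, 668 with only the night arrays fitted, 16 without both ZT2b arrays, 601 without both ZT10 arrays and 0 to 602 with 1 array left out. For day minus night it was 0 to 1 with 1 array left out. Of the calls by day 53.8% were higher in LD, and 61.4% after median centring. Leaving out the ZT2b arrays leaves a single pool per condition at every time. The cause of the shift without them, and of the other shifts, was not tested.

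Over 87 named genes, 2240 of the values under alternatives kept their direction and side of the threshold, 163 lost the call, 13 gained it and 10 changed sign. Many alternatives, such as leaving out a night array or changing the variance prior, cannot change the day value. Leaving out the LD or the DD array of ZT6 gives the same day value, as it does for ZT10. The counts of this paragraph are therefore not counts of separate checks. Of 70 genes called, 28 were called under every alternative that tested them, which was 27 of the 28 for LOC559664 and cpdp. With each array left out 49 were called. The changes of sign were in genes not called: exorh (-0.011 to 0.10 with 1 array left out, -0.034 without both ZT2b arrays), fkbp5 (-0.14 to 0.076, and 0.038 without both ZT10 arrays), tph1a (-0.48 to 0.070) and fosab (-0.75 to 0.15). Named genes called at night kept their direction under every alternative run, though most of these alternatives cannot change the night value. Each lost its call without either ZT18 array. These readings were added after seeing the data. No paired analysis by replicate number was possible because the labels give no such numbers, and pairing by time was part of the fit. Probe sets near the pseudocount have the least certain sizes.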

Other observations

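egr4, an early response transcription factor gene, read 206 at ZT6 and 895 at ZT10 in LD, and 26.2 and 9.5 at ZT2 and ZT2b. In DD it read 16 to 35.5 at the same hours. Its day difference was not called (1.54 ± 0.66, adjusted p = 0.157). hey1, a Notch target gene, read 78.0 and 71.6 in LD at ZT2 and ZT2b against 225 and 242 in DD, and 213 and 220.2 in LD at ZT6 and ZT10 against 135 and 179 in DD. Its differences ran in opposite directions at ZT2 and at the later hours, and it was not called (-0.51 ± 0.31, adjusted p = 0.313). Both genes were picked after their values were seen.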
